A study of Caenorhabditis elegans with 7 samples.

Results

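The CYP-35 genes of *C. elegans* are a subfamily of cytochrome P450 genes. The 10 members, *cyp-35A1* to *cyp-35A5*, *cyp-35B1* to *cyp-35B3*, *cyp-35C1* and *cyp-35D1*, were taken by gene symbol from the 19859 genes that a probe of the array could be matched to, and 13 probes report them, with 2 for *cyp-35A3*, 3 for *cyp-35A4* and 1 for each of the others. The 7 arrays each carried Cy3-labeled cRNA from whole N2 worms, the wild-type Bristol strain, fed on OP50 bacteria and collected on adult day 7. From the L4 larval stage, 4 preparations had received the DMSO vehicle and 3 had received 25 μM tomatidine, a steroidal alkaloid of unripe tomatoes. The groups shared genotype, age and food. One label field lists the control worms as untreated and another, like the methods, as given vehicle, and they are called vehicle below. The methods describe separate experiments, but also 1 hybridization that combined the preparations, and its array is not identified, so the p values below measure only the spread between these 7 arrays, which may not all be independent.

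Cytochrome P450 enzymes are heme proteins that insert an oxygen atom into lipophilic molecules, with electrons passed on by a reductase or by cytochrome b5. In the worm, foreign chemicals that enter with the food meet such enzymes mainly in the intestine, where the oxidized products are conjugated and exported. The CYP-35 genes are known among the transcripts of this system that respond readily to foreign compounds, and genes of the CYP-35A group have also been tied to fat storage. Their induction is known to depend on the Mediator subunit MDT-15 and on nuclear hormone receptors. The comparison asks whether worms exposed to the plant alkaloid for their adult life so far carried more or less of these transcripts.

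All 10 genes lie on chromosome V. *cyp-35A5*, *cyp-35B1*, *cyp-35B2* and *cyp-35B3* follow each other with 0 coding genes between them, *cyp-35A1* and *cyp-35A2* are likewise neighbors, and *cyp-35A3* and *cyp-35A4* are separated only by *K09D9.1*. *cyp-35C1* and *cyp-35D1* each stand alone. Members of such clusters can resemble each other in sequence, and whether a probe also binds the transcript of a neighbor was not tested.

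The labels carry a further tag, whose meaning the methods do not give. Vehicle array 2 and tomatidine array 1 share the tag 300, vehicle array 3 and tomatidine array 2 share 450, vehicle array 4 and tomatidine array 3 share fem, and vehicle array 1 alone has ND_1. Vehicle arrays 1, 2 and 3 and tomatidine array 1 were on 1 slide and the other 3 arrays on another. The 2 arrays tagged 300 had the highest background, with a net negative control intensity of 424.4 and 237.2 against 75.1 to 114.4 on the other 5, and the lowest share of probes well above background, 52.9% and 57.1% against 60.5% to 69.7%. Vehicle array 2 was also the only array extracted without multiplicative detrending. All 9 marker genes of the intestine passed the filter on dim probes, and the mean log2 signal of that list lay between 4.85 and 5.42 on the 7 arrays.

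No member passed the test between tomatidine and vehicle. Of the 9 members tested, 0 were higher and 0 lower at an adjusted p of 0.05 in limma, where 0.0773% of the 14224 genes tested were higher (11 genes) and 0% were lower. At an unadjusted p of 0.05, 0 of 9 members and 1.22% of all genes passed in limma, and 0 members passed the general two-group test of the methods, which called 222 genes before and 0 after adjustment. The vehicle and tomatidine arrays overlapped for every member tested, whereas they did not overlap for 2.08% of all genes. The median log2 fold change of the 9 members was 0.10, against -0.03 for all genes. All values below are normalized log2 signals, on which a difference of 1 is a doubling, and since each gene is read by its own probe the levels of different genes cannot be set against each other.

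The CYP-35A group includes the members best known as reporters of chemical exposure. *cyp-35A2*, a transcript known to rise with many foreign compounds, read 3.27, 4.88, 2.27 and 3.84 on vehicle arrays 1 to 4 and 4.41, 1.78 and 3.60 on tomatidine arrays 1 to 3. The lowest array of each group carried the tag 450 and the highest the tag 300, and the groups overlapped along almost their whole length. The log2 fold change was -0.30 ± 0.57 (SE, n = 4 and 3), with a 95% interval of -1.52 to 0.91 (limma, adjusted p = 0.9998, as for every member). After normalization the vehicle arrays spanned 6.10-fold and the tomatidine arrays 6.20-fold. The raw processed intensity ran from 532.6 to 8098 among vehicle arrays and from 573.5 to 3327 among tomatidine arrays. It is not normalized between arrays, so these ranges also hold differences in the brightness of whole arrays.

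*cyp-35A3*, whose promoter is used in reporter strains for exposure to chemicals, spread most. Its vehicle arrays read -0.41, 1.65, -1.34 and 2.21, and its tomatidine arrays read 2.57, -1.66 and 1.19. Arrays of either group were among the highest and among the lowest. The vehicle arrays differed by up to 11.6-fold and the tomatidine arrays by up to 18.8-fold, so that the log2 fold change of 0.17 ± 0.88 (SE) had an interval of -1.72 to 2.05. The second probe of the gene followed the same course over the arrays but gave a difference of -0.25, opposite in sign, and 2 of its arrays, those tagged 450, were not well above background.

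*cyp-35A1* and *cyp-35A4* are close relatives of *cyp-35A2* and *cyp-35A3*. *cyp-35A1* read -1.50, -1.31, -3.11 and -0.25 on the vehicle arrays and -0.92, -2.38 and -1.02 on the tomatidine arrays, with a log2 fold change of 0.10 ± 0.58 (SE). Vehicle array 3 was its lowest and the only one not well above background. *cyp-35A4* read -2.36, -1.94, -4.10 and -1.27 on the vehicle arrays and -0.40, -2.40 and -1.63 on the tomatidine arrays. Tomatidine array 1 stood above all others and vehicle array 3 below all others, and the signal was well above background on 2 of 4 vehicle and 3 of 3 tomatidine arrays. The log2 fold change of 0.94 ± 0.63 (SE) was the largest among the members, its interval of -0.41 to 2.29 spanned 0, and the 3 probes of the gene gave 0.94, 0.85 and 0.96.

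*cyp-35A5*, at the edge of the cluster with the CYP-35B genes, read -1.23, -1.68, -3.13 and -0.93 on the vehicle arrays and -2.10, -2.40 and -1.12 on the tomatidine arrays. It was well above background on 2 of 4 and 2 of 3 arrays, so part of these values are close to the noise of the array. Its log2 fold change was -0.13 ± 0.53 (SE).

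Of the CYP-35B group, *cyp-35B1* is known as a target of insulin signaling through the transcription factor DAF-16. It read 2.10, 1.95, 1.45 and 2.61 on the vehicle arrays and 1.72, 2.43 and 2.39 on the tomatidine arrays. These arrays lay closer together than those of any other of the 9 members, and the log2 fold change of 0.15 ± 0.28 (SE) had the narrowest interval, -0.45 to 0.75. *cyp-35B2* read -1.62, -2.04, -1.70 and -0.16 on the vehicle arrays and -1.23, 0.16 and -0.59 on the tomatidine arrays. The 3 tomatidine arrays lay above 3 of the 4 vehicle arrays but, with the exception of array 2, below vehicle array 4. Its log2 fold change was 0.83 ± 0.47 (SE), with an interval of -0.18 to 1.83 and the smallest unadjusted p of any member, 0.0987 in limma. *cyp-35B3* was not well above background on any of the 7 arrays and was not tested.

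*cyp-35C1* is the single gene of its group and is known to be induced by foreign compounds like the CYP-35A genes. It read 3.64, 5.60, 3.24 and 4.78 on the vehicle arrays and 5.17, 3.07 and 4.47 on the tomatidine arrays, with the tag 450 lowest and the tag 300 highest in both groups, as for *cyp-35A2*. The mean hardly differed between the groups, with a log2 fold change of -0.08 ± 0.51 (SE) and an interval of -1.17 to 1.02. *cyp-35D1*, whose product metabolizes the anthelmintic thiabendazole in worms, read 0.03, 0.80, -0.73 and 0.96 on the vehicle arrays and -0.23, -0.28 and 0.06 on the tomatidine arrays. The 3 tomatidine arrays stood close together inside the range of the vehicle arrays, and the log2 fold change was -0.41 ± 0.38 (SE), with an interval of -1.22 to 0.39.

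**Figure D1:**
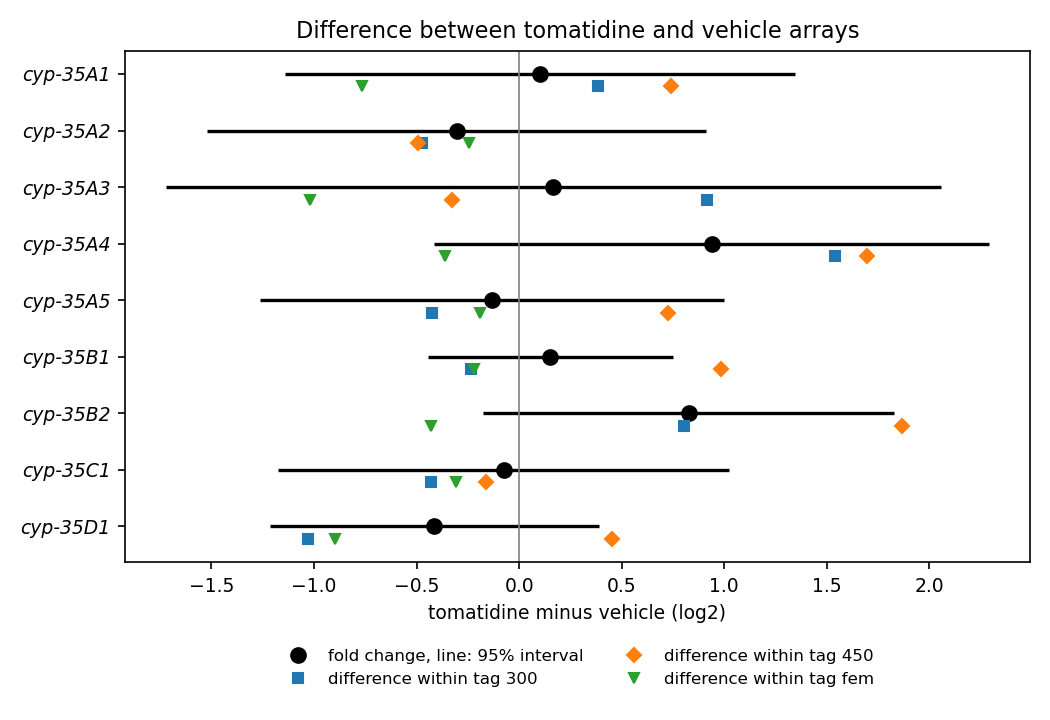
Difference between tomatidine and vehicle arrays in log2 units for the 9 CYP-35 genes tested; black points are log2 fold changes over 4 vehicle and 3 tomatidine arrays, lines their 95% intervals, and colored marks the differences within each shared label tag. Every interval spans 0, and the marks of 7 of the 9 genes fall on both sides of 0.

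What set the members apart from most genes was their spread inside the groups. The residual SD of the fit was 1.05 log2 units in the median of the 9 members and 0.34 over all genes tested. It exceeded that of at least 95.2% of genes for all 5 CYP-35A genes and for *cyp-35C1*, with *cyp-35A3* at 1.88, whereas *cyp-35B1*, at 0.45, exceeded 70.8% of genes. *cyp-35A1*, *cyp-35A4* and *cyp-35A5* were not well above background on every array, and their spread depended on the processing. With normexp and quantile normalization of the median signal, the SE of their fold changes was 0.17, 0.18 and 0.14, against 0.58, 0.63 and 0.53 in the main fit. For *cyp-35A2* it was 0.49 against 0.57. This alternative changed the signal, the background correction and the normalization together, and the part of each was not tested. Among vehicle arrays alone, *cyp-35A2* spanned 6.10-fold, *cyp-35C1* 5.16-fold, *cyp-35D1* 3.21-fold and *cyp-35B1* 2.24-fold. The intervals above follow from this spread, and those of *cyp-35A1*, *cyp-35A3* and *cyp-35C1* leave room for changes of 2-fold or more in either direction.

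The spread followed the label tags. After the pattern had been seen, the 6 arrays that share a tag were fitted with tag and group together, and the difference between the 3 tags was tested for each gene in limma. It passed for 6 of the 9 members, the 5 CYP-35A genes and *cyp-35C1*, where 12.7% of all genes tested passed. The adjusted p was 9.26e-06 for *cyp-35A2*, 1.01e-05 for *cyp-35A3*, 4.54e-05 for *cyp-35C1*, 0.00586 for *cyp-35A1*, 0.0150 for *cyp-35A4* and 0.0284 for *cyp-35A5*. The other 3 members did not pass, with 0.0929 for *cyp-35D1*, 0.104 for *cyp-35B2* and 0.190 for *cyp-35B1*. Since the pattern was noticed in these same arrays, these p values describe it and are not independent support.

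The tag 450 was the low one. Its mean lay below those of both other tags for 7 of the 9 members, and for 35.1% of all genes, and it was the lowest on each of the 2 slides taken alone for 7 of 9 members and 16% of genes. *cyp-35A3* differed by -3.61 ± 0.34 (SE) log2 units from the tag 300 and by -3.19 ± 0.34 from the tag fem. *cyp-35A2* and *cyp-35C1* differed by -2.62 ± 0.23 and -2.23 ± 0.23 units from the tag 300. *cyp-35B1* and *cyp-35B2* instead had their lowest mean at the tag 300, although *cyp-35B1* differed from the tag 450 there by only 0.11 ± 0.28. The distance between the highest and the lowest tag mean reached 2 log2 units for 5 of the 9 members and for 1.61% of all genes. These sizes depended on the processing. With normexp and quantile normalization of the median signal, 1 of 9 members and 0.0703% of all genes reached 2 units, and *cyp-35A3* differed by -1.85 from the tag 300 and by -1.69 from fem.

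**Figure D2:**
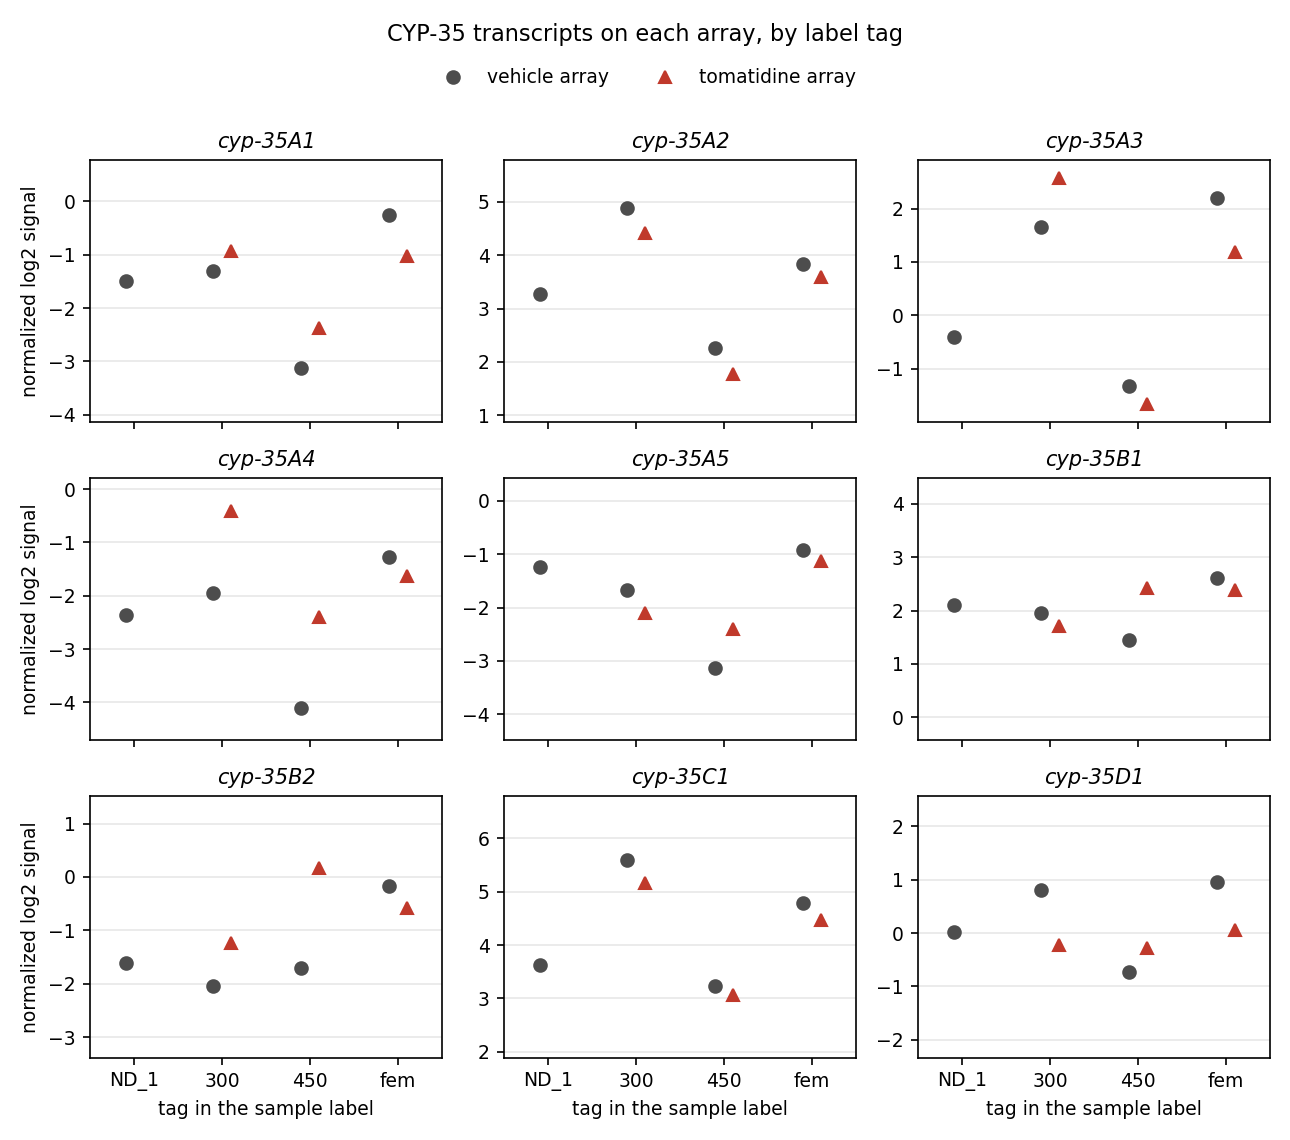
Normalized log2 signal of the 9 CYP-35 genes tested on each of the 7 arrays, placed by the tag in the sample label, with circles for vehicle and triangles for tomatidine arrays; all panels span the same number of log2 units, each around its own level. For *cyp-35A2* and *cyp-35C1* both groups are lowest at the tag 450 and highest at the tag 300, and *cyp-35B1* stays within 1.16 units.

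Because the 2 arrays tagged 300 also had the high background, the contrast between the tags 450 and fem is the one between arrays of similar background, with negative controls of 101.9 and 78.8 against 75.1 and 87.0. The share of probes well above background was 60.5% on vehicle array 3 and 67.0% on tomatidine array 2, against 66.1% and 68.5% at fem. All 9 members had a lower mean at the tag 450 in this contrast without a term for the slide, where 64.5% of all genes had, with differences from -0.40 for *cyp-35B2* to -3.19 for *cyp-35A3*. The difference was -1.70 ± 0.23 (SE) for *cyp-35A2*, -2.11 ± 0.41 for *cyp-35A1* and -1.47 ± 0.23 for *cyp-35C1*. For *cyp-35A1*, *cyp-35A4* and *cyp-35A5*, 1 of the 2 arrays tagged 450, vehicle array 3, was not well above background, so the size of their difference is uncertain, and under normexp it was -0.56 for *cyp-35A1* and -0.36 for *cyp-35A4*. The tags 300 and fem each lie on 1 slide. With the slide added to the fit, 7 of 9 members (62.2% of all genes) were lower at 450 than at fem, with -3.33 for *cyp-35A3*, -1.76 for *cyp-35A2* and -0.30 for *cyp-35D1*, while *cyp-35B1* (0.047) and *cyp-35B2* (0.44) turned. Leaving out vehicle array 3 gives this same estimate and not a second check, because only the tag 450 has arrays on both slides. In both fits the tag 450 is read against fem from tomatidine array 2 alone. *cyp-35B2* also turned without vehicle array 4 (0.48) and under normexp (0.026). The part of the background of the arrays in the pattern was not tested.

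*cyp-35A2*, *cyp-35A3* and *cyp-35C1* passed the test between tags in each of 8 alternatives that kept the 6 arrays and 2 residual degrees of freedom, among them the one with only probes well above background on all 7 arrays. *cyp-35A1* and *cyp-35A4* passed in 6 of 7, not with every dim probe kept in the test, and *cyp-35A5* passed in 5 of 7. With 2 residual degrees of freedom, the p values of the main tag test and of these alternatives rest largely on the spread borrowed from other genes. In limma without the trend, the adjusted p rose to 0.00713 for *cyp-35A2* and to 0.00903 for *cyp-35A3* and *cyp-35C1*. Fits with the slide added or with 1 array left out have 1 residual degree of freedom, so their p values rest on the borrowed spread almost wholly. With the slide added, 6 of 9 members passed, where 3.78% of all genes did, with *cyp-35D1* in place of *cyp-35A5*. Without vehicle array 3, 4 of 9 members passed, where 14% of all genes did, with *cyp-35B2* among them and *cyp-35A1*, *cyp-35A4* and *cyp-35A5* not. Without tomatidine array 2, all 9 passed, where 19.1% of all genes did.

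**Figure D3:**
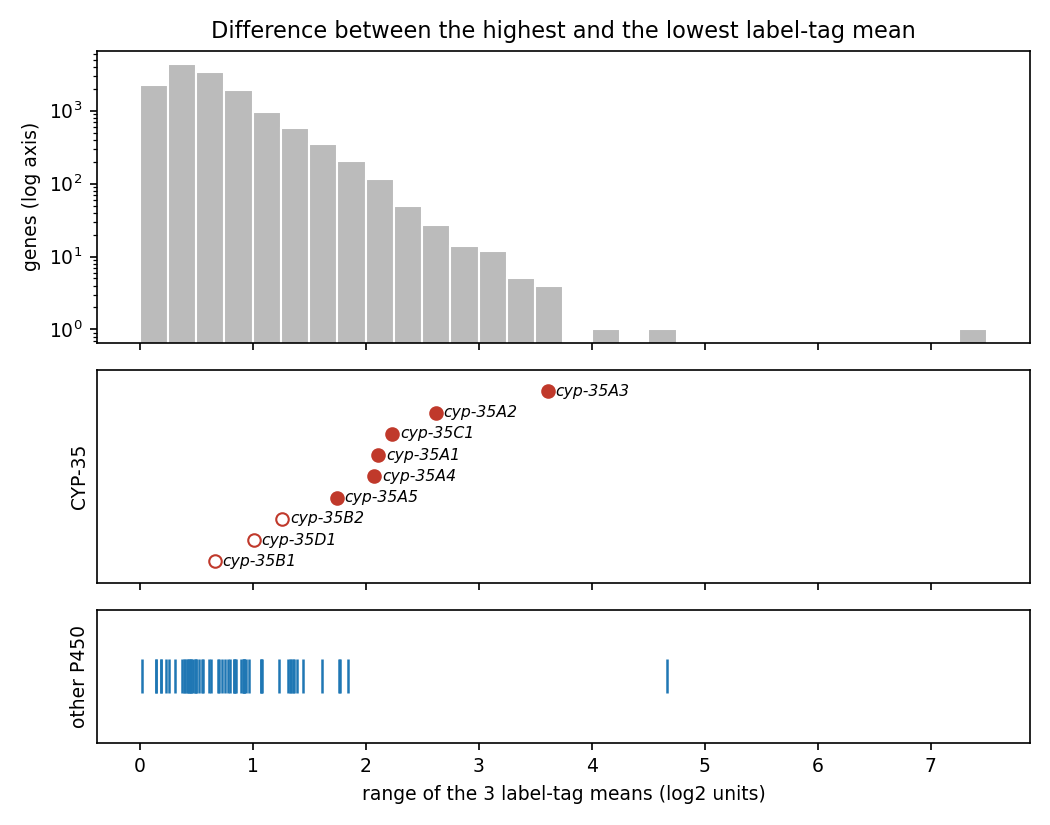
Distance between the highest and the lowest label-tag mean in log2 units; top, number of genes per bin among the 14224 tested (log axis), middle, the 9 CYP-35 genes (filled where the test between tags passed), bottom, the 59 other cytochrome P450 genes tested. The 5 CYP-35 genes farthest to the right lie beyond 2 units, where 1.61% of all genes lie.

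Genes with several probes showed the same course on each. Both probes of *cyp-35A3* fell to their lowest values, -1.34 and -2.80 on vehicle array 3 and -1.66 and -3.24 on tomatidine array 2, on the arrays tagged 450. The 3 probes of *cyp-35A4* read -4.10, -4.75 and -4.19 on vehicle array 3 and -0.40, -0.63 and -0.56 on tomatidine array 1, which were the lowest and the highest array for all of them. *K09D9.1*, the gene that lies between this pair and was chosen here after its values were seen, stayed nearly level. It read 2.58, 2.41, 2.57 and 2.77 on the vehicle arrays and 2.41, 2.50 and 2.94 on the tomatidine arrays, and the test between tags gave an adjusted p of 0.323 in limma.

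**Figure D4:**
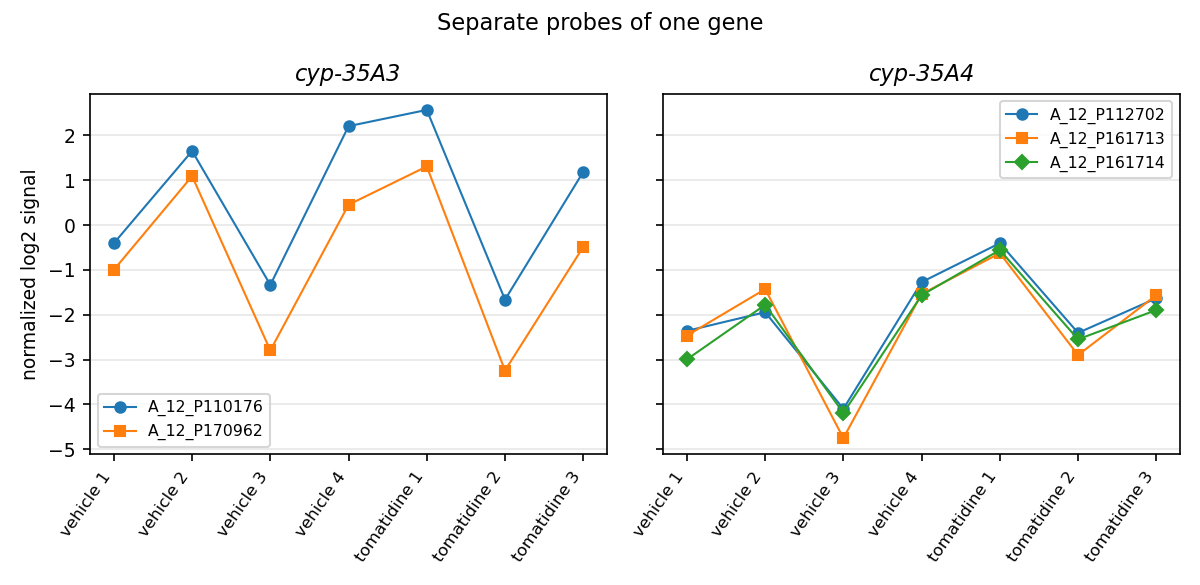
Normalized log2 signal of the separate probes of *cyp-35A3* (2 probes) and *cyp-35A4* (3 probes) on the 7 arrays; each line joins the values of 1 probe, in the order of the labels. Each of the 5 probes has its lowest value on an array tagged 450, vehicle 3 or tomatidine 2.

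Within each shared tag, tomatidine and vehicle can be compared on 1 array each. *cyp-35A2* was lower with tomatidine in all 3 pairs, by -0.47, -0.49 and -0.25 at the tags 300, 450 and fem, and *cyp-35C1* was lower in all 3, by -0.43, -0.16 and -0.31. The other 7 members had pairs of both signs. How often all 3 pairs share a sign over all genes was not counted, so these signs are a description only. *cyp-35A4*, for example, read higher with tomatidine by 1.54 and 1.69 at the tags 300 and 450 and differed by -0.36 at fem, and *cyp-35B2* read 0.81, 1.87 and -0.43. Over the 9 members the median difference was -0.23, 0.73 and -0.36 in the 3 pairs, against -0.09, 0.03 and 0.00 over all genes.

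With the tags as a block in the fit, the SE of most members shrank, from 0.57 to 0.18 for *cyp-35A2* and from 0.88 to 0.28 for *cyp-35A3*. The log2 fold changes became -0.40 for *cyp-35A2*, 0.96 ± 0.40 (SE) for *cyp-35A4* and 0.75 ± 0.35 for *cyp-35B2*, with unadjusted p of 0.0422, 0.0271 and 0.0464 in limma, so that 3 of 9 members and 4.06% of all genes passed before adjustment. None passed after it, with an adjusted p of at least 0.988 for every member. *cyp-35C1* had an interval of -0.69 to 0.08 in this fit, and *cyp-35A3* one of -0.74 to 0.45. With 2 residual degrees of freedom, these widths rest largely on the spread borrowed from other genes, so they are not a firm bound. For *cyp-35A3* the differences within the tags 300, 450 and fem were 0.92, -0.33 and -1.02, and those at 300 and fem lay outside its interval.

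The median of the members had opposite signs on the 2 slides. On the slide with 3 vehicle arrays and tomatidine array 1, which carries the tag 300, the median difference of the 9 members was 0.94, and on the slide with vehicle array 4 and tomatidine arrays 2 and 3 it was -1.01, against -0.06 and -0.08 over all genes. *cyp-35A3* differed by 2.60 on the first and by -2.44 on the other, and *cyp-35A2* by 0.94 and -1.16. With 1 array in a group on each slide there is no test within a slide, and each slide holds an uneven mix of tags.

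Over the 7 arrays, *cyp-35A2* and *cyp-35C1* ordered the arrays in the same way (Pearson r = 0.97, Spearman rho = 1), and *cyp-35A3* followed them with r of 0.91 and 0.93. *cyp-35A1* and *cyp-35A4*, on different stretches of the chromosome, had an r of 0.87. The neighbors *cyp-35B1* and *cyp-35B2* followed each other (r = 0.78, rho = 0.79) but not *cyp-35A2*, to which their r was -0.04 and -0.42. These values describe 7 arrays that share tags and slides.

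The 5 genes that most resembled the mean course of the 5 members detected on every array (*cyp-35A2*, *cyp-35A3*, *cyp-35B1*, *cyp-35C1* and *cyp-35D1*) over the 7 arrays were *dhs-20*, *cyp-25A2*, *nlp-59*, *Y48G1C.6* and *cyp-14A3*, each with r = 0.99. *dhs-20* is named as a short-chain dehydrogenase and *nlp-59* as a neuropeptide-like gene, and *cyp-25A2* and *cyp-14A3* are P450 genes of other subfamilies. The mean course of the 5 members read -0.37, 0.88, -1.12 and 0.78 on the vehicle arrays and 0.63, -1.03 and 0.24 on the tomatidine arrays, relative to its mean. It does not stand for each of them alike, since r to it was 0.97 for *cyp-35A3* and *cyp-35C1* and 0.23 for *cyp-35B1*. *cyp-14A3* had the same shape at a larger scale, at -0.10, 3.06, -1.79 and 2.28 on the vehicle arrays and 2.41, -2.07 and 0.81 on the tomatidine arrays. *cyp-25A2* ranked the arrays exactly as this mean of 5 members did (rho = 1). The 5 similar genes were picked for the highest r over only 7 arrays, so their r and rho follow from that choice and are no test.

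**Figure D5:**
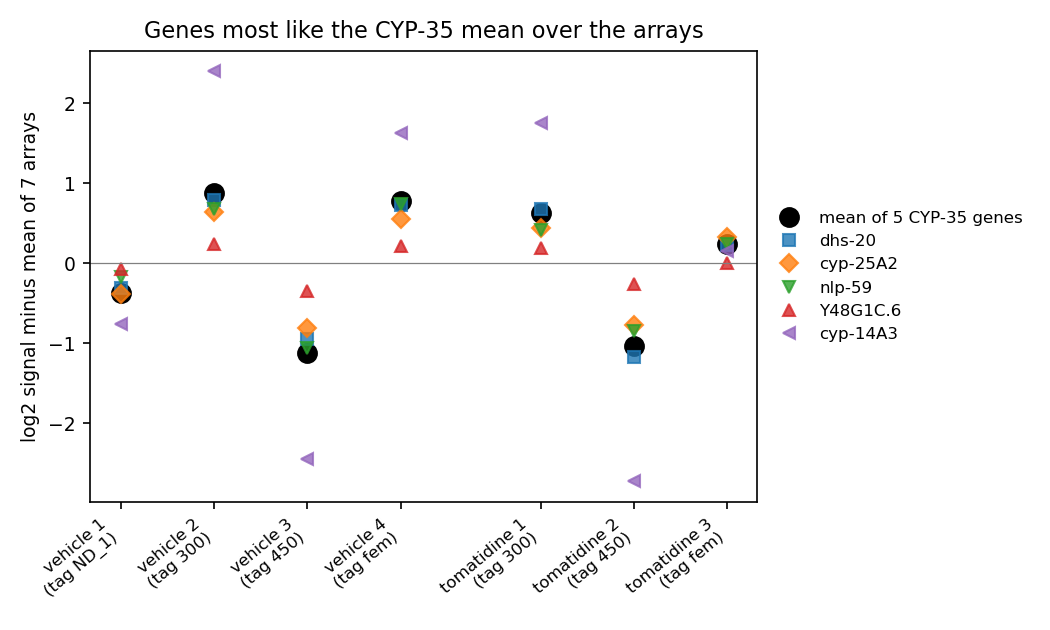
Log2 signal relative to the mean of the 7 arrays, for the mean of 5 CYP-35 genes (black) and the 5 genes with the most similar course (colored), by array and label tag. All are lowest on the 2 arrays tagged 450, and *cyp-14A3* spans the widest range.

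The other parts of the same detoxification system can be read beside the members. Of 59 other P450 genes tested, 12 (20.3%) differed between tags, where 12.7% of all genes tested did. The tag 450 was lowest in 7 of these 12, against 25.5% of all genes that differed. These 7 were led by *cyp-14A3* with a distance of 4.66 units between tag means, *cyp-25A1* with 1.77 and *cyp-33B1* with 1.76. In the limma comparison of tomatidine with vehicle over all 7 arrays, 4 of the 59 other P450 genes were higher with tomatidine. Of all genes tested, 0.0773% were. Among them, *cyp-33C1* was well above background on all 3 tomatidine arrays and on none of the vehicle arrays. It met the filter on dim probes only through the group where it was high, so its adjusted p of 0.000316 in limma is not independent of that filter. *cyp-13A3* was well above background on 2 vehicle and 3 tomatidine arrays. *cyp-13A3*, *cyp-33D1* and *cyp-34A7* (each adjusted p = 0.000970 in limma) had log2 fold changes of 3.36 ± 0.36, 3.11 ± 0.35 and 2.61 ± 0.29 (SE). The residual SD of these 3 was between 0.39 and 0.54, below that of every CYP-35A gene.

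Among the electron donors, 0 of 4 genes passed the test with tomatidine. *hpo-19* and *cytb-5.2* had log2 fold changes of -0.17 ± 0.25 and -0.02 ± 0.23 (SE). *cytb-5.1*, a cytochrome b5, was the 1 gene of the list that differed between tags (adjusted p = 0.0127 in limma). Its lowest mean was at the tag 450, as for 7 of the 9 members and 35.1% of all genes. Of the 11 regulators, 0 passed for tomatidine and 0 for the tags. The brightest of them, *nhr-49* and *skn-1*, had log2 fold changes of -0.13 ± 0.20 and -0.09 ± 0.19 (SE). *mdt-15* and *nhr-176* are named for their known roles. *mdt-15*, which encodes the Mediator subunit MDT-15, had a log2 fold change of -0.30 ± 0.23 (SE). For *nhr-176*, the receptor known to act on *cyp-35D1* under thiabendazole, it was -0.12 ± 0.29. Of 4 lipid genes known as targets of MDT-15 and NHR-49, 0 passed with tomatidine. The fatty acid desaturase gene *fat-7* had a log2 fold change of 1.32 ± 0.30 (SE, adjusted p = 0.563 in limma) and groups that did not overlap, whereas *fat-5*, *fat-6* and *acs-2* had -0.07, -0.11 and -0.12. Between tags, 2 of the 4 differed, *acs-2* (adjusted p = 0.00704 in limma) and *fat-6* (0.0436). Of 95 conjugation genes, 0 passed with tomatidine and 19 (20%) differed between tags, 11 with the tag 450 lowest. Of 22 export genes, 0 passed with tomatidine and 1 (4.55%) differed between tags. The share of all genes tested that differed between tags was 12.7%.

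Some markers of tissues also differed between tags, where 12.7% of all genes tested did. The marker lists hold few genes, so their shares are coarse, and those of intestine, body wall muscle and neurons were 22.2%, 16.7% and 14.3%. The mean log2 signal of the 9 intestinal markers was 5.42 on the vehicle and 5.40 on the tomatidine array at the tag 300, 4.98 and 5.15 at 450, 5.07 and 5.31 at fem, and 4.85 on vehicle array 1. Within each group its order over the 3 shared tags was that of *cyp-35A2* and *cyp-35C1*, at far smaller distances, and 2 of the 9 markers differed between tags, 1 of them with the tag 450 lowest. That of the 8 germline and oocyte markers was 9.24 and 9.16 at 300, 9.13 and 8.68 at 450, 8.32 and 8.47 at fem, and 4 of the 8 differed between tags, with the tag 450 lowest in 0 of them. Hypodermis and sperm markers differed between tags in 2 of 4 genes each, body wall muscle markers in 1 of 6 and neuron markers in 1 of 7, again with the tag 450 lowest in 0. The part of tissue makeup in the CYP-35 values was not tested, and on arrays of whole worms fewer cells of a type and less RNA per cell cannot be told apart.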

How the data were processed

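The authors extracted each array with Agilent Feature Extraction 11.5.1.1, and the processed signal they deposited is a background-subtracted intensity without normalization between arrays. A value table deposited by the authors gives a score for each probe, its z-score on that array, and served as an alternative. Control spots and outlier spots were left out, and log2 signals were converted to z-scores per array and multiplied by the mean SD of the arrays, 4.05. Genes needed a probe flagged well above background on 3 or more arrays, and the brightest such probe was used. Groups were compared in limma 3.58.1 under R 4.3.3 (lmFit, eBayes with trend, two-sided, 5 residual degrees of freedom) with Benjamini-Hochberg adjustment over all genes. The scripts were tested on simulated data.

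The number of arrays limits the precision. The correlation over genes of the arrays' deviations from their group mean was 0.61, 0.19 and 0.50 for arrays sharing a tag and -0.53, -0.45 and -0.33 for those sharing a title number, so the tags were taken to pair the arrays. Arrays of different tags reached 0.35. The fit with tags has 2 residual degrees of freedom, or 1 with the slide added or an array left out, and an array left without its partner is assumed to vary like the others.

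The members and lists were chosen with earlier results of these data known. Every member is named, with up to 4 genes past the test from each list, up to 2 of the brightest of a short list and the 5 most similar genes. Exceptions are *K09D9.1*, *ahr-1*, *mdt-15*, *nhr-176*, *fat-7* and the genes named for a difference between tags. The normexp alternative used median signals because no mean signal was in the files used here. Gene names came from RefSeq, and no coordinates are given because the array's annotation uses an older build. Probe sequences were not used here.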

Additional observations from a re-analysis of the deposited data

How the results depend on the processing

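No CYP-35 gene passed the test with tomatidine in any of the 185 alternative fits run over the 9 members, whose lowest adjusted p in limma was 0.988, and the median of the members stayed between -0.43 and 0.47, with an SD between arrays of 0.77. The sign was less stable, since it turned in 31 of the 185, but in 0 of those of *cyp-35A4*, *cyp-35B2* and *cyp-35D1*, whose size still moved. Leaving out 1 array at a time gave 0.38 to 1.40, 0.47 to 1.23 and -0.74 to -0.18 for these 3, and normexp correction gave 0.15, 0.20 and -0.24. With the tags as a replicate block, *cyp-35A3* became -0.14 and *cyp-35A5* 0.037. With the title number as a block, *cyp-35A5* became 0.14 and *cyp-35C1* 0.081. With the slide as a block, *cyp-35A1* became -0.13, *cyp-35B1* -0.15 and *cyp-35C1* 0.062. Normexp correction turned *cyp-35A1* to -0.033, and the mean over probes turned *cyp-35A3* to -0.039. Without the pair tagged 300, *cyp-35A1* became -0.08, *cyp-35A3* -0.39 and *cyp-35A5* 0.0030. Without the pair tagged 450, an alternative chosen after seeing the data, *cyp-35A2* became 0.0053, *cyp-35B1* -0.17 and *cyp-35C1* 0.15. Leaving out 1 array at a time gave -0.42 to 0.57 for *cyp-35A1*, -0.88 to 0.44 for *cyp-35A2*, -0.77 to 1.35 for *cyp-35A3*, -0.60 to 0.14 for *cyp-35A5*, -0.04 to 0.38 for *cyp-35B1* and -0.54 to 0.51 for *cyp-35C1*. The cause of these turns was not tested.

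Over all genes, 11 were higher with tomatidine, and the count was 5 with probes well above background on all 7 arrays, 6 without the trend, 23 with the tags and 28 with the title number as a replicate block, 0 with the general two-group test of the methods, 6 without the pair tagged 450 and 7 to 11 without 1 array. The count of lower genes, 0, became 1 with the title number as a block and 1 without the pair tagged 300. The count of 6 members that differed between tags became 3 of 5 tested with probes well above background on all 7 arrays (11.9% of all genes tested), 3 of 10 with no filter (1.85%), and 4 to 9 of 9 without 1 array (5.19% to 19.1%).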
